A study of Homo sapiens and Mus musculus with 69 samples.

Results

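The S100 and annexin genes were taken as every gene whose symbol begins with S100A or ANXA followed by a digit, together with *S100B* and *S100P*, leaving out the *ANXA2P* pseudogenes and *S100PBP*. This gave 31 of 20516 genes in the table of the human lines (17 S100 genes, 13 annexins and *ANXA2R*, which the naming rule also takes) and 24 of 18501 genes in the table of the mouse line KP1 (13 S100 genes and 11 annexins). *ANXA2R* encodes a receptor for annexin A2 and is not itself an annexin.

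Bulk RNA-Seq values were given for 5 small cell lung cancer (SCLC) lines, in 20 human groups and 3 KP1 groups of 3 libraries each. H82, H524, H69 and COR-L88 are human lines, and KP1 comes from a mouse tumor lacking Rb1 and Trp53. In H82, H524 and H69 a lentiviral vector with a doxycycline-inducible promoter carried the intracellular domain of NOTCH1 (N1ICD). The groups were the parental line, the vector line without doxycycline and the vector line with 1 µg/mL doxycycline. Doxycycline was given for at least 28 days (56 days in H82 and H524, more than 56 days in H69). H82 N1ICD cells were also given with a CRISPR knockout (KO) of REST or of STING, each without and with doxycycline, and a REST vector induced by doxycycline was carried by further H524 cells, again with an uninduced group. COR-L88 cells received DMSO, the LSD1 inhibitor TAS1440 (100 nM) or TAS1440 plus the γ-secretase inhibitor (GSI) BMS-708163 (2 µM) for 28 days, and COR-L88 STING KO cells received DMSO or TAS1440. KP1 cells received DMSO, TAS1440 (100 nM) or TAS1440 plus the GSI DBZ (10 µM) for more than 28 days. In the overexpression groups only adherent cells, those that trypsin had to release, were collected after doxycycline, whereas all COR-L88 cells were collected. The labels do not say whether the KO lines are single clones or whether libraries come from separate cultures, so *P* values measure the spread between these libraries.

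S100 proteins are small EF-hand proteins that bind calcium and act as dimers, and most of their genes lie next to each other on the long arm of human chromosome 1. Annexins bind acidic phospholipids in the presence of calcium and work at membranes in repair, endocytosis, exocytosis and control of inflammation. Members of the families pair with each other: S100A10 joins annexin A2 in a heterotetramer that recruits plasminogen and AHNAK to the membrane, and S100A11 binds annexin A1. S100A4 and S100A6 are best known from motile and mesenchymal cells, and S100A8 and S100A9 from myeloid cells.

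In the GRCh37 annotation, 15 of the 17 S100 genes lay between positions 151955391 and 153604515 of chromosome 1, a stretch of 1.65 Mb that begins with *S100A10* (chr1:151955391-151966335, minus strand) and *S100A11* (chr1:152004982-152020383, minus strand) and ends with *S100A1*. *S100A6* (chr1:153507075-153508720), *S100A4* (chr1:153516089-153522612) and *S100A16* (chr1:153579362-153585621) lay on the minus strand within it. *S100P* was on chromosome 4 and *S100B* on chromosome 21. The annexin genes were scattered, with *ANXA1* at chr9:75766781-75785309 (plus strand), *ANXA2* at chr15:60639333-60695082 (minus strand), *ANXA5* at chr4:122589101-122618150 (minus strand) and *ANXA6* at chr5:150480267-150537376 (minus strand). *S100A3* lay inside the annotated range of *S100A4* on the same strand, so reads may be shared between them, and *S100A1* and *S100A13* overlapped on opposite strands, with the strand used in counting not given. *ANXA8* and *ANXA8L1*, as well as *S100A7* and *S100A7A*, are near-identical copies whose reads may be split.

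Promoter windows of RefSeq on GRCh38.p14 (250 bases before to 50 bases after a start site) were found for 28 of the 31 human members, with 40 windows in all. They are shown for 4 examples, *S100A3*, *S100A2*, *S100A4* and *ANXA2*, which rose with NOTCH1 activation in 3 of the 4 human lines. Each window holds a match to the core bound by RBPJ, the DNA-binding partner of NOTCH (TGGGAA), or by AP-1 (TGANTCA). *ANXA6*, not shown, also rose in 3 lines and has an RBPJ match. Members that fell in at least 1 line have matches too, to RBPJ in *S100A1* and *S100A14* and to AP-1 in *S100A5*. Capitals mark the matches, all sequences read 5′ to 3′ on the minus strand, and the windows lie at chr1:153549209-153549508, chr1:153565795-153566094, chr1:153545757-153546056 and chr15:60397937-60398236, in that order.
S100A3: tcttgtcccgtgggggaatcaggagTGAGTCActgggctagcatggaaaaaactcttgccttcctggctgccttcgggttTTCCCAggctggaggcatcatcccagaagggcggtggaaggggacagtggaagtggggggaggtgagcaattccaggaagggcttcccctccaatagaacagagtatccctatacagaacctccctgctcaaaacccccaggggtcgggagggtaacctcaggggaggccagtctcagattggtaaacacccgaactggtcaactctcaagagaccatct
S100A2: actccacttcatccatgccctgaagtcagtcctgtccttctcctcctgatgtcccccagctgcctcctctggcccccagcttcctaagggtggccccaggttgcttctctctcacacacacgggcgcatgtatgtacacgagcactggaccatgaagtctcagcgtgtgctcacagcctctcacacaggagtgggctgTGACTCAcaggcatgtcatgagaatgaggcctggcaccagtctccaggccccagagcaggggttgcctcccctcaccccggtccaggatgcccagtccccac
S100A4: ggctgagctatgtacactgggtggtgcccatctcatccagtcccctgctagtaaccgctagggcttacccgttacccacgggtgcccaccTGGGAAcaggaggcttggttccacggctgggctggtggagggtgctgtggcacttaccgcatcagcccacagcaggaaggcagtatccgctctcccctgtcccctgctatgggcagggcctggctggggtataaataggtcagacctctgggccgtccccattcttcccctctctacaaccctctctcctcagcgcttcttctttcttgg
ANXA2: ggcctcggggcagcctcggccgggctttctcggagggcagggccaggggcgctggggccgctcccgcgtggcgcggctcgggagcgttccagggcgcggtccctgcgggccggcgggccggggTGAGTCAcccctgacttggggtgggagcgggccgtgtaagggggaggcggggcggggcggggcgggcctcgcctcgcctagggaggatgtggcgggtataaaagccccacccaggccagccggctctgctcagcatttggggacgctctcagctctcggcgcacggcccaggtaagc
The AP-1 matches began 225 bases before the start in *S100A3*, 52 before in *S100A2* and 127 before in *ANXA2*, and the RBPJ matches began 170 before in *S100A3* (on the opposite strand) and 160 before in *S100A4*.

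Over both strands, and counting each motif separately where matches overlapped, TGGGAA was in 11 of the 40 member windows (27.5%) and in 24.0% of all 35116 windows of that length. TGANTCA was in 4 member windows (10.0%, against 7.71% of all), in *ANXA2*, *S100A2*, *S100A3* and *S100A5*. The TEAD core GGAATG was in 3 member windows (7.5%, against 14.0% of all). The shares in the members thus lay close to those of all windows for the RBPJ and AP-1 cores, and a match in such a window is a description of its letters.

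All levels below are log2(RPKM + 1), a scale adjusted for transcript length, and differences are log2 differences with their standard error (SE) from limma, with *P* adjusted across the tested genes of each line (Benjamini-Hochberg). A member was called higher or lower where this *P* was under 0.05 and the log2 difference was at least 1 in size. Of the 31 human members, 25 reached a log2 value of 1 in at least 3 libraries of some line and were tested there. The other 6 (*ANXA9*, *ANXA10*, *ANXA13*, *S100A7*, *S100A7A* and *S100B*) did not, with highest values between 0.02 and 0.83. In KP1, 14 of 24 members were tested. Some of the tested members reached a log2 value of 1 in treated libraries alone and so had to differ: 4 of 19 in H82 (*ANXA8*, *ANXA8L1*, *S100A2*, *S100A3*), 0 of 19 in H524 and in H69, 4 of 20 in COR-L88 (*ANXA1*, *ANXA8*, *S100A11*, *S100A4*) and 8 of 14 in KP1 (*Anxa1*, *Anxa3*, *Anxa5*, *Anxa7*, *Anxa8*, *S100a10*, *S100a11*, *S100a4*). Others reached 1 in fewer than 3 of the remaining libraries and so also passed only with the treated ones. These included *ANXA1*, *S100A3* and *S100A11* in H524 and *Anxa2* and *Anxa4* in KP1. The reduced counts below leave out the first set alone.

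The libraries were compared in size only relative to each other, because the values hold no read counts, and lay between 0.701 and 1.52 times the median in the human table and between 0.871 and 1.07 in KP1. RPKM sums were far smaller in the KP1 table (127599 to 143996) than in the human table (1202460 to 2331976), so levels are not set against each other across the tables. *NOTCH1* itself rose by 3.70 (H82), 6.86 (H524) and 7.60 (H69) with doxycycline. In the H82 libraries labelled STING KO with doxycycline, however, the STING transcript (listed as *TMEM173*) was at 1.27 to 2.04, above the 1.07 to 1.17 of the intact libraries (0.50 ± 0.18, adjusted *P* = 0.0361). RNA values do not show whether the protein was lost. The paper shows immunoblots of single-cell *STING1* KO clones of H82 and COR-L88, and the labels do not link libraries to clones. The COR-L88 libraries labelled STING KO had *TMEM173* at 0.96 to 1.16 with TAS1440, below the 2.03 to 2.54 of intact libraries (-1.13 ± 0.14, adjusted *P* = 0.000132). In the H82 REST KO libraries with doxycycline *REST* differed by -1.05 ± 0.22 from the intact ones (adjusted *P* = 0.00114).

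Before any treatment the lines differed in which members were high. In parental H82, *ANXA6* led at 8.60 (8.42 to 8.75 in the 3 libraries), followed by *ANXA2* (6.02 to 7.40) and *ANXA5* (6.24 to 6.88), whose ranges overlapped. Parental H524 was also led by *ANXA6* (8.59 to 9.10), with *S100A1* next (5.20 to 5.25) and overlapping with *ANXA5* (4.86 to 5.32). Parental H69 was led by *S100A6* (7.88 to 7.94), then *S100A10* (7.60 to 7.67) and *ANXA2* (6.75 to 6.93), 3 levels that did not overlap. COR-L88 in DMSO was led by *ANXA5* (6.68 to 6.92), with *ANXA2* (5.94 to 6.68) just touching it and *S100A16* (6.13 to 6.23) inside the range of *ANXA2*. *S100A6* thus ran from at most 0.30 in every H82 library to 7.88 or more in parental H69. In KP1 with DMSO, *S100a1* (1.15 to 2.08), *Anxa11* (1.38 to 1.69) and *S100a6* (0.90 to 1.86) were the highest, with overlapping ranges.

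**Figure D1:**
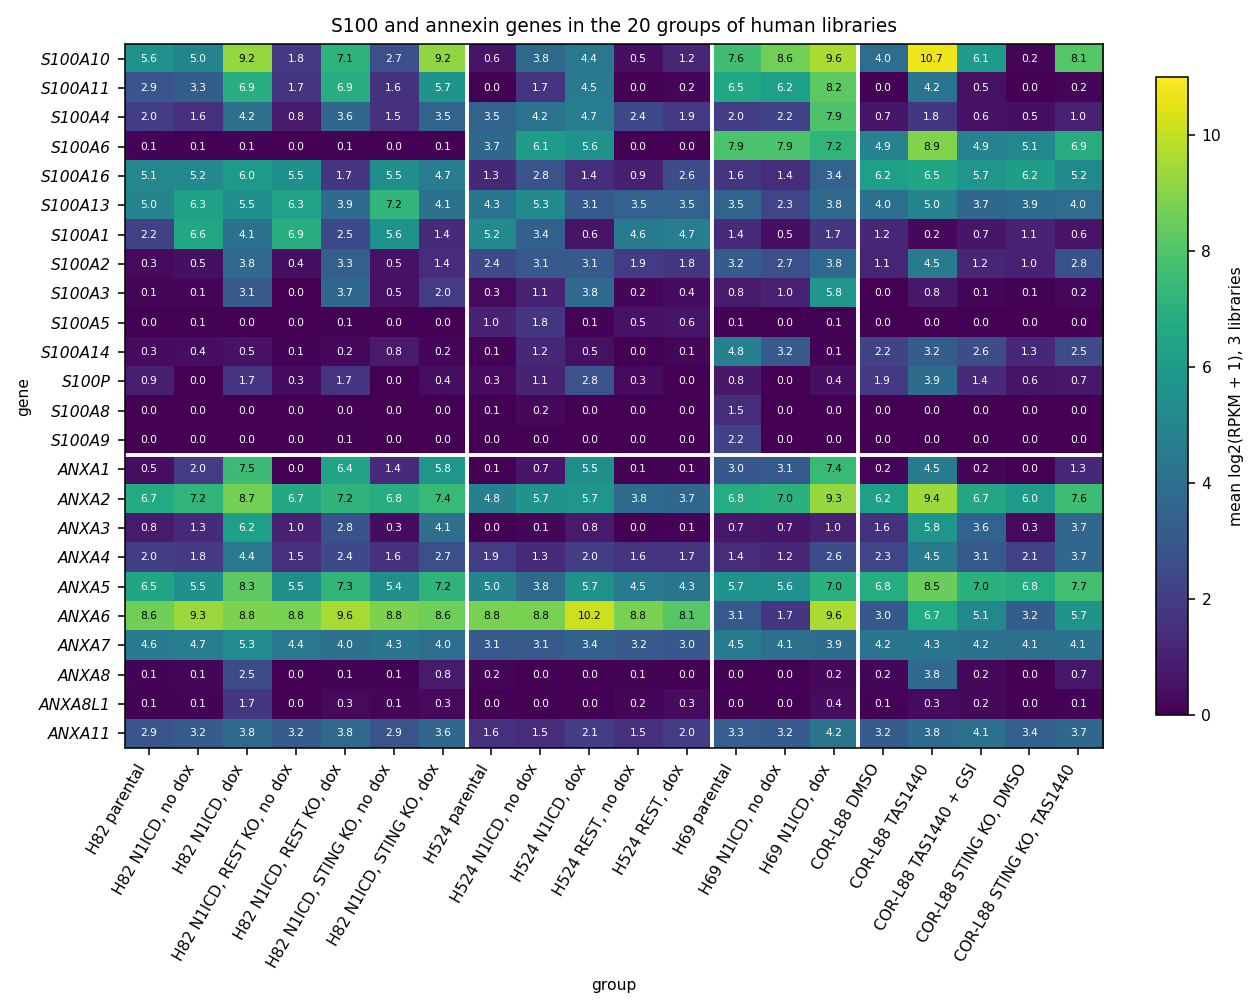
Heat map of the mean log2(RPKM + 1) over 3 libraries for 24 human members (vertical axis) in the 20 human groups (horizontal axis), with the mean written in each cell. *ANXA6* has means of 8.11 or more in every H82 and H524 group, against 3.01 in COR-L88 with DMSO and 1.73 in H69 N1ICD without doxycycline, and *S100A6* is at or near 0 throughout H82.

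NOTCH1 activation was addressed by doxycycline in the N1ICD lines and by TAS1440 in COR-L88 and KP1. For the N1ICD lines the paper describes collection of adherent cells after doxycycline and does not describe it for uninduced cells. Induction and this collection cannot be told apart in the doxycycline comparisons. Most S100 and annexin genes tested were higher in the activated libraries of H82, H69 and COR-L88, and fewer of them in H524. In H82, 13 of the 19 members tested rose and 1 fell, against 14.7% of all 13903 genes that rose and 12.4% that fell, and the median difference of the members was 2.35 against 0.00 for all genes. In H69, 13 of 19 rose and 1 fell (all genes 21.4% and 20.4%), with a median of 1.41 against 0.08. COR-L88 with TAS1440 had 13 of 20 higher and 1 lower (all genes 15.3% and 7.46%), with a median of 2.08 against 0.01. After quantile normalization the COR-L88 libraries had a median of -0.14 over all genes, 56.3% instead of 67.2% of the genes called were higher, and 12 members were higher and 1 lower. In H524, 5 of 19 rose and 3 fell (all genes 11.4% and 7.19%), with a median of 0.45. Among those that rose, *ANXA1*, *S100A3* and *S100A11* passed the filter only with the doxycycline libraries. In KP1, 12 of 14 members rose and 0 fell by limma (all genes 9.09% and 9.7%), also at an unadjusted *P* under 0.05, with a median of 3.51. However, 8 of these 12 reached the filter level of 1 in the TAS1440 libraries alone and were tested only because these were high. Without the members at that level in treated libraries alone, 9 of 15 rose in H82, 9 of 16 in COR-L88 and 4 of 6 in KP1 (*Anxa2*, *Anxa4*, *Anxa6* and *S100a6*). Of the 4 in KP1, *Anxa2* and *Anxa4* also passed the filter only with the TAS1440 libraries, which leaves *Anxa6* and *S100a6*.

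In H82, 6 of 9 S100 genes and 7 of 10 annexins rose, against 14.7% of all genes. These counts include *S100A2*, *S100A3*, *ANXA8* and *ANXA8L1*, which reached a log2 value of 1 in doxycycline libraries alone and so had to differ. *ANXA1*, *ANXA5* and *S100A11* rose in all 4 human lines. A further 6 members rose in 3 lines (*ANXA2*, *ANXA4*, *ANXA6*, *S100A2*, *S100A3* and *S100A4*), 4 in 2 lines (*ANXA3*, *ANXA8*, *S100A10* and *S100P*) and 6 in 1 line, so that 19 rose somewhere. How many of all genes rose in as many lines was not counted. In COR-L88, *ANXA1*, *S100A11*, *S100A4* and *ANXA8* reached a log2 value of 1 in TAS1440 libraries alone and so had to differ. *ANXA1*, *S100A3* and *S100A11* passed the filter in H524 only with the doxycycline libraries. *S100A1*, *S100A13*, *S100A14* and *S100A5* fell in at least 1 line. *ANXA7*, a widely expressed annexin, was tested in all 4 lines and called in 0 of them by limma, with differences between -0.18 and 0.64.

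**Figure D2:**
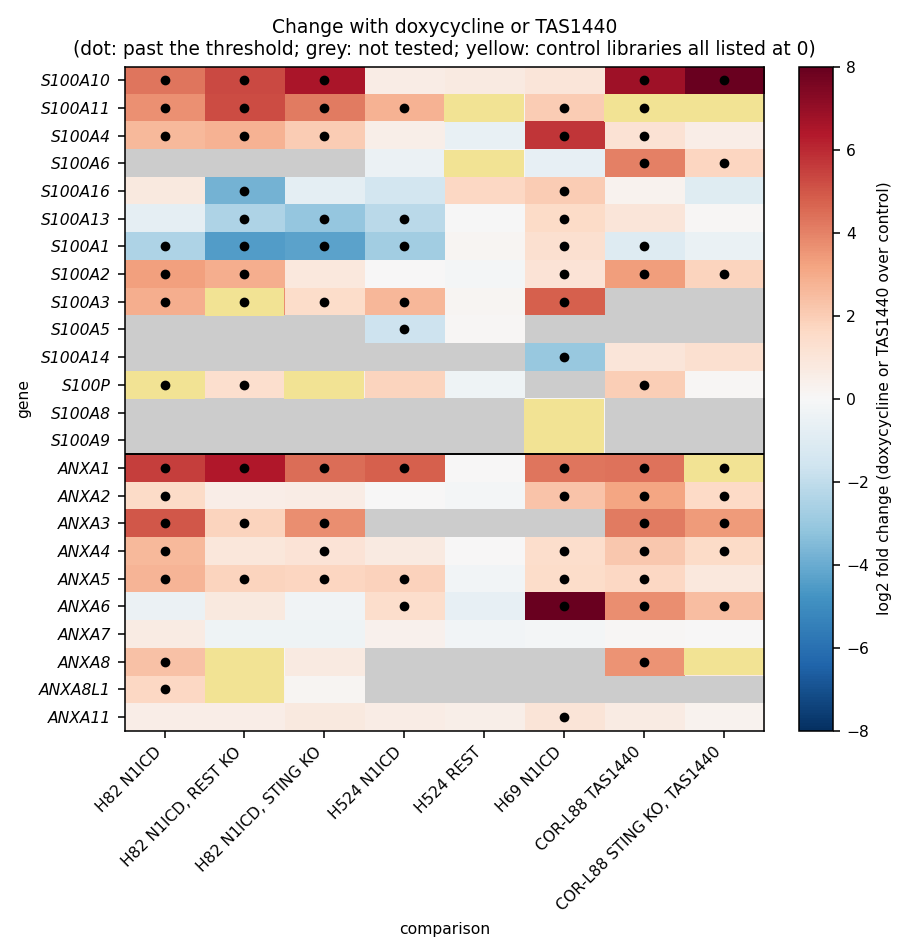
Heat map of log2 differences (colour) for the human members (vertical axis) in 8 comparisons (horizontal axis). A dot marks an adjusted *P* under 0.05 with an absolute difference of at least 1, grey marks members not tested and yellow those whose control libraries were all listed at 0. *ANXA1*, *ANXA5* and *S100A11* carry a dot in each of the 4 lines.

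*S100A10* and *ANXA2*, the partners of the heterotetramer, behaved differently between lines. In H82, *S100A10* was at 4.01, 5.22 and 5.63 without doxycycline and at 9.29, 9.70 and 8.76 with it. The 3 induced libraries were all above the 3 controls, by 4.30 ± 0.58 (adjusted *P* = 7.44e-06). COR-L88 *S100A10* went from 4.20, 4.00 and 3.72 in DMSO to 11.43, 10.28 and 10.46 with TAS1440. No COR-L88 libraries overlapped, and this was the largest rise of any human member in that line among those with a control above 0 (6.75 ± 0.44, adjusted *P* = 5.13e-08). In H69, where *S100A10* was already at 8.53, 8.57 and 8.83, it reached 9.49, 9.66 and 9.61. These groups did not overlap, but the difference of 0.94 ± 0.09 stayed under the threshold of 1. In H524 it was at 4.89, 3.22 and 3.27 without and at 4.64, 4.12 and 4.46 with doxycycline, overlapping groups with a difference of 0.61 ± 0.47 (adjusted *P* = 0.357).

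*ANXA2* was well above 0 in each line before activation. H82 libraries had 7.36, 7.30 and 6.91 without doxycycline and 8.51, 9.37 and 8.18 with it. This rise of 1.5 ± 0.29 (adjusted *P* = 0.000386) was smaller than that of its partner, and library 8 was the highest. H69 libraries had 6.8, 7.11 and 7.12 without and 9.20, 9.28 and 9.30 with doxycycline, a rise of 2.25 ± 0.09 (adjusted *P* = 6.11e-08) with tight groups far apart. COR-L88 libraries had 6.68, 5.94 and 6.07 in DMSO and 9.98, 8.91 and 9.30 with TAS1440. They did not overlap either (3.17 ± 0.34, adjusted *P* = 3.53e-06). H524 libraries overlapped, at 6.34, 5.26 and 5.49 without and 5.56, 5.71 and 5.92 with doxycycline, with a difference of 0.03 ± 0.32 (adjusted *P* = 0.95) whose sign turned when 1 library was left out. The pseudogene *ANXA2P2*, which shares sequence with *ANXA2*, moved alongside it, from a mean of 1.71 to 3.72 in H82, 2.40 to 5.42 in COR-L88 and 3.45 to 5.66 in H69, so reads may be split between them.

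*ANXA1* encodes annexin A1, a mediator of the anti-inflammatory action of glucocorticoids, and rose most in H82 among all members. H82 libraries had 0.99, 2.17 and 2.75 without doxycycline and 7.59, 8.18 and 6.81 with it. The lowest induced library was far above the highest control (5.56 ± 0.44, adjusted *P* = 1.02e-08), a 47.2-fold difference of RPKM + 1. In H524, *ANXA1* went from 1.68, 0.25 and 0.09 to 5.48, 5.44 and 5.48. It was the largest rise in H524 as well (4.79 ± 0.30, adjusted *P* = 3.00e-08), and the 3 induced libraries were nearly equal. H69 libraries went from 2.89, 2.97 and 3.45 to 7.32, 7.45 and 7.45 (4.30 ± 0.17, adjusted *P* = 3.44e-08). In COR-L88 it was at 0.29, 0.00 and 0.19 in DMSO and at 4.98, 4.15 and 4.32 with TAS1440 (4.33 ± 0.38, adjusted *P* = 6.81e-07). In every line the groups were apart.

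*S100A11*, whose product binds annexin A1, moved with it in each line. In H82 it was at 4.00, 2.94 and 2.84 without doxycycline and at 6.97, 7.07 and 6.65 with it (3.64 ± 0.45, adjusted *P* = 2.53e-06). In H69 it was at 5.98, 6.30 and 6.42 without and at 8.19, 8.20 and 8.32 with doxycycline (2.00 ± 0.11, adjusted *P* = 3.68e-07). H524 started lower, at 2.32, 2.09 and 0.73, and reached 4.12, 4.61 and 4.74 (2.78 ± 0.31, adjusted *P* = 9.59e-06). The groups did not overlap in these lines. In COR-L88, *S100A11* was listed at 0 in all 3 DMSO libraries and at 4.65, 4.43 and 3.62 with TAS1440 (adjusted *P* = 1.92e-08), for which no fold is given.

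The calcium-binding proteins S100A4 and S100A6 are neighbours on chromosome 1, and their transcripts were not called together in the N1ICD lines. In H69, *S100A4* was at 1.99, 2.39 and 2.23 without doxycycline and at 7.96, 7.93 and 7.93 with it. Both groups were tight, and the rise of 5.74 ± 0.10 had the smallest *P* of the members in that line (adjusted *P* = 3.83e-10). H82 *S100A4* went from 1.34, 2.21 and 1.18 to 3.8, 4.89 and 3.79 without overlap (2.58 ± 0.42, adjusted *P* = 6.51e-05). COR-L88 *S100A4* went from 0.52, 0.65 and 0.79 to 2.07, 1.47 and 1.82 (1.13 ± 0.16, adjusted *P* = 4.13e-05), which became 0.99 without library 13. In H524 it was already at 4.25, 4.72 and 3.79 and was at 4.32, 4.91 and 4.88 with doxycycline, overlapping groups with a difference of 0.45 ± 0.36 (adjusted *P* = 0.375).

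*S100A6* was called higher in COR-L88 and not in the other 2 lines where it was tested. COR-L88 libraries had 5.66, 4.39 and 4.54 in DMSO and 9.44, 8.60 and 8.74 with TAS1440 (4.06 ± 0.43, adjusted *P* = 3.15e-06), without overlap. H69 libraries had 7.47, 8.01 and 8.16 without and 7.12, 7.27 and 7.25 with doxycycline, a small difference of -0.66 ± 0.16 (adjusted *P* = 0.00373) under the threshold of 1. H524 libraries had 7.69, 5.53 and 4.98 without and 5.26, 5.77 and 5.83 with doxycycline (-0.45 ± 0.51, adjusted *P* = 0.553), overlapping groups in which library 22 stood highest, and the difference was 0.37 without it. In the 3 H82 N1ICD libraries without doxycycline *S100A6* was at 0.20, 0.00 and 0.00, and with doxycycline at 0.09, 0.25 and 0.00, below the filter.

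**Figure D3:**
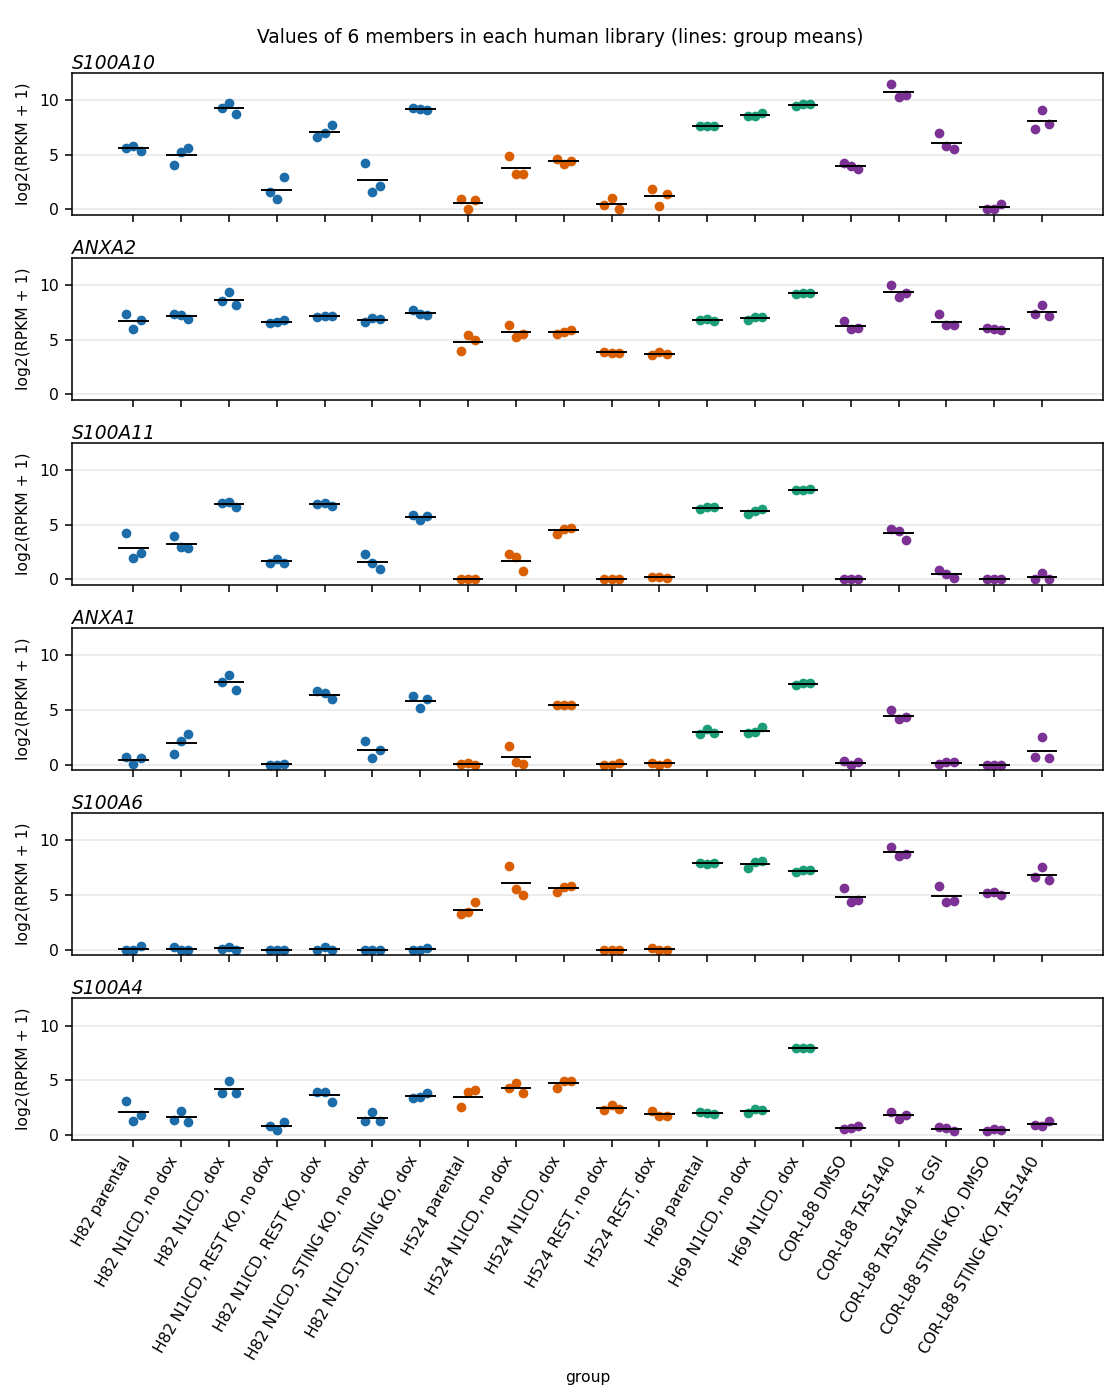
Log2(RPKM + 1) of *S100A10*, *ANXA2*, *S100A11*, *ANXA1*, *S100A6* and *S100A4* (1 panel each, vertical axis) in every human library by group (horizontal axis), with points for libraries and lines for the means of 3. *ANXA1* and *S100A11* are higher in the activated groups of all 4 lines, whereas *S100A6* rises in COR-L88 from between 4.39 and 5.66 to between 8.60 and 9.44.

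*S100A2* and *S100A3*, the next genes of the chromosome 1 stretch, rose in most lines. *S100A3* in H69 was at 0.12, 1.37 and 1.46 without doxycycline and at 5.74, 5.72 and 5.79 with it (4.76 ± 0.33, adjusted *P* = 1.36e-06). In H524 it was at 2.23, 0.60 and 0.43 without and at 3.24, 3.94 and 4.06 with doxycycline (2.66 ± 0.38, adjusted *P* = 0.000105). In H82 it was at 0.43, 0.00 and 0.00 without and at 2.60, 3.66 and 2.95 with it (2.92 ± 0.25, adjusted *P* = 2.15e-08). None of these groups overlapped, and *S100A3* shares annotated bases with *S100A4*, which did not pass the test in H524. *S100A2* in H82 was at 0.66, 0.40 and 0.36 without and at 4.03, 3.99 and 3.23 with doxycycline (3.28 ± 0.38, adjusted *P* = 1.22e-06). In COR-L88 it was at 1.77, 0.60 and 1.04 in DMSO and at 5.13, 4.19 and 4.10 with TAS1440 (3.34 ± 0.40, adjusted *P* = 9.24e-06). In both lines the groups were apart, whereas in H69 the rise of 1.09 ± 0.30 (adjusted *P* = 0.00876) became 0.67, no longer called, without library 49, which was the lowest at 1.85.

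*S100A1*, known from heart and skeletal muscle, and *S100A13*, which takes part in the release of growth factors that lack a signal peptide, went down in some lines and up in H69. In H82, *S100A1* was at 6.07, 7.21 and 6.49 without doxycycline and at 4.21, 4.81 and 3.33 with it (-2.47 ± 0.52, adjusted *P* = 0.000723). In H524 it fell from 2.65, 5.35 and 2.17 to 0.65, 0.38 and 0.81 (-2.78 ± 0.57, adjusted *P* = 0.00184). In H69 it rose from 0.15, 0.84 and 0.43 to 1.61, 1.86 and 1.70 (1.25 ± 0.16, adjusted *P* = 9.12e-05). The groups did not overlap in these 3 lines, and COR-L88 also had a fall (-1.02 ± 0.20, adjusted *P* = 0.000647). *S100A13* in H524 went from 5.28, 5.94 and 4.62 to 3.16, 3.09 and 3.08 (-2.17 ± 0.27, adjusted *P* = 2.75e-05). In H69 it went from 1.99, 2.31 and 2.54 to 3.71, 3.81 and 3.85 (1.51 ± 0.13, adjusted *P* = 5.16e-06). *S100A13* in H82 did not pass the test (-0.75 ± 0.33, adjusted *P* = 0.0672), with library 8 at 6.65 among controls of 6.05 to 6.73.

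*S100A16*, a broadly expressed S100 gene, changed in H69 and not in the other lines by this test. H69 libraries had 0.91, 2.27 and 1.14 without doxycycline and 3.56, 3.05 and 3.72 with it (2.01 ± 0.36, adjusted *P* = 0.000753). H82 libraries had 4.89, 5.76 and 4.95 without and 5.79, 6.72 and 5.47 with doxycycline (0.79 ± 0.46, adjusted *P* = 0.16). COR-L88 libraries had 6.22, 6.13 and 6.23 in DMSO and 7.16, 6.24 and 5.94 with TAS1440, of which library 13 stood clearly above the controls, library 14 just above and library 15 below (0.25 ± 0.23, adjusted *P* = 0.365). The H524 libraries were spread widely, at 4.79, 3.72 and 0.00 without and 2.38, 0.68 and 1.10 with doxycycline (-1.45 ± 0.89, adjusted *P* = 0.243). *S100A14*, an epithelial S100 gene, fell in H69 from 3.16, 3.04 and 3.31 to 0.09, 0.00 and 0.25 (-3.06 ± 0.10, adjusted *P* = 1.14e-08). *S100A5* fell in H524 from 2.77, 1.55 and 0.92 to 0.00, 0.09 and 0.17 (-1.66 ± 0.34, adjusted *P* = 0.00175). Neither set of libraries overlapped.

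*S100A8* and *S100A9*, which form calprotectin in neutrophils and monocytes, were nearly absent. Both were listed at 0 in all libraries of H69 without and with doxycycline, of H82 N1ICD without KO and of all COR-L88 groups, and with doxycycline in H524. Parental H69 was the exception, with *S100A8* at 1.30, 1.45 and 1.62 and *S100A9* at 2.28, 2.20 and 2.10. H524 without doxycycline had *S100A8* at 0.69 and *S100A9* at 0.13 in library 23 and at 0 in the other 2 libraries. Beyond these, *S100A8* was at 0.21 in a parental H524 library and *S100A9* at 0.25 in a REST KO library of H82 with doxycycline. The summed RPKM of the 6 myeloid markers (*PTPRC*, *CD14*, *LYZ*, *ITGAM*, *CSF1R*, *FCGR3A*) was 17.1 to 18.5 in parental H69, 7.30 to 11.0 in H69 N1ICD without doxycycline and 26.1 to 28.7 with it, with 1 of the 6 at a mean of at least 1 in each, and *LYZ* and *FCGR3A* at 0 in the parental libraries. *S100P*, found in placenta and in several carcinomas, was listed at 0 in H82 N1ICD without doxycycline and at 0.90, 2.40 and 1.79 with it (adjusted *P* = 0.00836). Parental H82, at 1.47, 0.00 and 1.36, overlapped with the induced libraries. In COR-L88 it was at 2.23, 1.91 and 1.53 in DMSO and at 4.25, 4.54 and 2.86 with TAS1440 (1.99 ± 0.71, adjusted *P* = 0.027), a call lost without any of libraries 11, 12, 13 or 14 (1.67 to 2.00).

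Among the other annexins, *ANXA5*, whose protein binds phosphatidylserine on dying cells, was high everywhere and rose in all 4 human lines. H82 libraries had 5.60, 5.72 and 5.31 without doxycycline and 8.09, 8.77 and 7.94 with it (2.72 ± 0.22, adjusted *P* = 1.06e-08). The rises in the other lines were 1.84 ± 0.23 in H524, 1.44 ± 0.06 in H69 and 1.67 ± 0.17 in COR-L88 (adjusted *P* = 2.54e-05, 5.37e-08 and 2.28e-06), each without overlap. *ANXA3* rose in both lines where it was tested. In H82 it went from 1.18, 1.48 and 1.2 to 6.07, 7.05 and 5.63 (4.96 ± 0.37, adjusted *P* = 5.15e-09), and in COR-L88 from 1.73, 1.59 and 1.48 to 6.43, 5.56 and 5.33 (4.17 ± 0.28, adjusted *P* = 5.63e-08). In H69 it was under the filter, between 0.53 and 1.06 in the N1ICD libraries.

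*ANXA6*, an annexin of endosomes and the cell cortex, showed the widest range of the family. It was at 8.66 to 9.74 in all 6 H82 N1ICD libraries (-0.49 ± 0.19, adjusted *P* = 0.0451, under the threshold of 1). In H69 it was at 4.67, 0.28 and 0.24 without doxycycline and at 9.67, 9.61 and 9.56 with it. The induced libraries were all far above, by 7.88 ± 1.03 (adjusted *P* = 9.63e-05), but the size rested on which control was kept: 9.35 without library 49, the high control, and 7.14 without library 51. In COR-L88 it went from 3.53, 2.62 and 2.89 to 6.34, 6.78 and 7.06 (3.71 ± 0.29, adjusted *P* = 1.98e-07). In H524 it went from 7.96, 9.20 and 9.20 to 9.97, 10.23 and 10.34 (1.39 ± 0.34, adjusted *P* = 0.00603), which became 0.98 without library 22.

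*ANXA4*, an annexin of epithelial membranes, rose in H82 from 1.73, 1.97 and 1.79 to 4.24, 4.91 and 4.09 (2.58 ± 0.24, adjusted *P* = 7.33e-08). It also rose in H69 (1.41 ± 0.07) and COR-L88 (2.17 ± 0.21), with adjusted *P* = 1.71e-07 and 1.32e-06, and in H524 the difference was 0.74 ± 0.19 (adjusted *P* = 0.00837). *ANXA8* was at 0.00, 0.44 and 0.00 in H82 controls and at 1.80, 2.76 and 2.95 with doxycycline (2.35 ± 0.22, adjusted *P* = 9.61e-08). In COR-L88 it was at 0.20, 0.22 and 0.15 in DMSO and at 4.06, 4.12 and 3.14 with TAS1440 (3.59 ± 0.36, adjusted *P* = 1.82e-06). Its near-copy *ANXA8L1* rose in H82 by 1.63 ± 0.26, so that reads of the pair cannot be assigned with certainty. *ANXA11* passed in H69 by a narrow margin (1.01 ± 0.11, adjusted *P* = 3.79e-05) and was at 0.90 without library 49. *ANXA2R* was highest at 2.15 in parental H524 and was not called in any of these comparisons.

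Fibroblast and neuroendocrine genes moved with these members. Over *DCN*, *LUM*, *PDGFRB*, *COL1A1* and *COL3A1*, the summed RPKM was 1.01 to 49.4 in H82 without and 1104 to 2142 with doxycycline, 0.90 to 3.58 and 4227 to 6076 in H524, 0.75 to 3.91 and 13703 to 14416 in H69, and 1.16 to 2.22 and 3.47 to 7.73 in COR-L88 with DMSO and TAS1440. The number of these 5 genes at a mean of at least 1 went from 2 to 4 in H82, 0 to 4 in H524 and 0 to 5 in H69, and was 1 in both COR-L88 groups. Over 8 neuroendocrine markers, among them *CHGA*, *SYP* and *NCAM1*, the sum went from 8657 to 22060 down to 24.7 to 49.0 in H82, from 11965 to 25455 down to 593 to 1476 in H524, from 989 to 2104 down to 13.0 to 14.0 in H69 and from 820 to 900 down to 74.1 to 112 in COR-L88. *NEUROD1* was at 0 in the H69 libraries with doxycycline. The sum of the 4 keratinocyte markers was 68.0 to 74.8 in H69 with doxycycline and at most 3.47 in every other human group, and that of 4 lymphoid markers was at most 1.39. The part of these changes in the S100 and annexin values was not tested, and in bulk RNA fewer cells of a type and less RNA per cell cannot be told apart.

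Partners and receptors of the families were counted as a separate list, of which 22 genes were in the human table and 19 in KP1. In H82, 9 of 18 tested rose and 2 fell (all genes 14.7% and 12.4%), and in H524 6 of 15 rose and 1 fell (11.4% and 7.19%). In H69 7 of 16 rose and 1 fell (21.4% and 20.4%), in COR-L88 7 of 14 rose (15.3%), and in KP1 6 of 12 rose (9.09%). These counts include genes that passed the filter only through treated libraries and so had to differ. In KP1 these were *Ahnak*, *Myof*, *Plat*, *Plaur* and *Dlc1*, at 0.16 or below in all DMSO and GSI libraries. *FPR2* in H82 was likewise listed at 0 in all libraries without doxycycline. No counts were made without such genes. *AHNAK*, the large scaffold bound by the *S100A10* and *ANXA2* products, rose in all 5 lines, by 3.13 ± 0.42 (H82), 2.24 ± 0.16 (H524), 2.65 ± 0.18 (H69), 3.93 ± 0.30 (COR-L88) and 4.38 ± 0.34 (*Ahnak* in KP1). *MYH9*, the nonmuscle myosin heavy chain bound by S100A4, rose in H82 (3.35 ± 0.36), H524 (3.12 ± 0.19), H69 (2.43 ± 0.10) and KP1 (*Myh9*, 1.45 ± 0.22). The membrane repair gene *DYSF* rose in all 4 human lines, by 3.26 ± 0.33 in H82, 5.46 ± 0.12 in H69 and 2.74 ± 0.39 in COR-L88, and its relative *MYOF* in all 5 lines, by 3.94 ± 0.07 in H69 and 4.13 ± 0.36 in COR-L88 (values are given where the higher mean was at least 3). The plasminogen activator gene *PLAU* rose in H82 (3.16 ± 0.30), H69 (2.15 ± 0.40) and COR-L88 (3.73 ± 0.37). *CACYBP*, which encodes a binding protein of S100A6, fell in H82 (-1.36 ± 0.22) and H524 (-1.43 ± 0.29), and *TLR4*, a receptor of S100A8 and S100A9, fell in H69 (-4.08 ± 0.07). In H82, however, *TLR4* was called higher, at 1.34, 1.14 and 0.70 with doxycycline. The largest adjusted *P* among the differences given here with an SE was 0.00193.

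The GSI blocks the cleavage that frees the NOTCH intracellular domain, and was given with TAS1440 to ask which values depend on it. The members that rose with TAS1440 were mostly lower again with the GSI, in COR-L88 and in KP1. In COR-L88, 14 of 20 fell relative to TAS1440 alone, against 10.4% of all 13134 genes, with a median of -1.53 against -0.04, and 10 of 16 did so without the members tested only through treated libraries. By limma 0 members rose, also at an unadjusted *P* under 0.05, against 4.32% of all genes. After quantile normalization 14 members were lower as well, and 40.4% instead of 29.4% of all called genes were higher. Both this comparison and TAS1440 against DMSO use the same 3 TAS1440 libraries. The *NOTCH1* transcript itself was higher with TAS1440 plus GSI than with TAS1440 alone, at 6.71 to 6.75 against 1.99 to 2.79 (4.39 ± 0.39, adjusted *P* = 3.23e-06). In KP1, *Notch1* was at 0.23, 0.41 and 0.54 with the GSI against 1.45, 1.33 and 0.95. *S100A10* was at 6.96, 5.80 and 5.5 with TAS1440 plus GSI, between the DMSO and the TAS1440 libraries (-4.64 ± 0.44 against TAS1440, adjusted *P* = 5.04e-06). *ANXA1* was at 0.05, 0.27 and 0.20, within the range of the DMSO libraries (-4.31 ± 0.38, adjusted *P* = 3.28e-06). *S100A6* was at 5.82, 4.39 and 4.41 (-4.05 ± 0.43, adjusted *P* = 9.63e-06), again overlapping with DMSO. *S100A11*, listed at 0 in DMSO, was at 0.85, 0.49 and 0.12 (-3.75 ± 0.25, adjusted *P* = 5.05e-07).

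*ANXA2* was at 7.33, 6.31 and 6.31 with the GSI (-2.74 ± 0.34, adjusted *P* = 3.01e-05), and *S100A4* at 0.69, 0.59 and 0.37 (-1.24 ± 0.16, adjusted *P* = 4.07e-05). Both sets lay below all TAS1440 libraries. *ANXA8* fell by 3.55, *S100A2* by 3.28, *ANXA3* by 2.21, *ANXA6* by 1.60, *ANXA5* by 1.46 and *ANXA4* by 1.35. *S100A13* (-1.27 ± 0.30) was at -0.87 without library 13, and *S100P* (-2.54 ± 0.71) lost its call without library 17. Against DMSO, *S100A10* (2.11 ± 0.44, adjusted *P* = 0.00317), *ANXA6* (2.11 ± 0.29, adjusted *P* = 9.89e-05) and *ANXA3* (1.96 ± 0.28, adjusted *P* = 0.000143) were still higher with TAS1440 plus GSI, 3 of 20 members against 9.02% of all genes called in either direction. The neuroendocrine sum was 336 to 390 with the GSI, between that of TAS1440 and that of DMSO. Library 13 was the highest of its group in 14 of the 20 members.

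In KP1, *S100a10*, *S100a11*, *Anxa3* and *Anxa8* were at or near 0 in DMSO and with TAS1440 plus GSI and were high with TAS1440, whereas *S100a1*, *S100a6* and *Anxa11* were above 0 in DMSO. *S100a10* was at 0.03, 0.00 and 0.01 in DMSO, at 4.07, 4.13 and 4.87 with TAS1440 and at 0.03, 0.11 and 0.18 with TAS1440 plus GSI. It rose by 4.34 ± 0.20 (adjusted *P* = 1.01e-06) and fell by 4.25 against TAS1440 (SE 0.20, adjusted *P* = 1.41e-06). Its partner *Anxa2* was at 0.46, 0.50 and 0.39, then at 3.96, 4.75 and 4.98, then at 0.28, 0.43 and 1.00 (4.11 ± 0.27 and -3.99 ± 0.27, adjusted *P* = 6.56e-06 and 1.01e-05). *S100a6* was at 1.72, 1.86 and 0.90, at 6.06, 6.89 and 6.19, and at 0.25, 1.33 and 0.81 (4.89 ± 0.35 and -5.58 ± 0.35, adjusted *P* = 9.81e-06 and 7.22e-06). In each of these genes the TAS1440 libraries were apart from both other groups. *S100a11* was listed at 0 in all DMSO libraries, at 4.35, 5.00 and 6.08 with TAS1440 (adjusted *P* = 7.48e-06), and at 0.03, 0.00 and 0.00 with the GSI. *Anxa1* was at 0.14, 0.11 and 0.47 in DMSO, at 3.35, 5.04 and 4.39 with TAS1440 and at 0.10, 0.03 and 0.04 with the GSI (4.02 ± 0.35 and -4.21 ± 0.35, adjusted *P* = 2.69e-05 and 2.51e-05).

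Most other KP1 members were also highest with TAS1440. *Anxa8* rose by 4.06 ± 0.28, *Anxa3* by 3.63 ± 0.42, *Anxa5* by 3.40 ± 0.25, *S100a4* by 2.33 ± 0.32, *Anxa6* by 1.73 ± 0.18, *Anxa7* by 1.05 ± 0.17 and *Anxa4* by 1.01 ± 0.10 with TAS1440. Against TAS1440, 12 of 14 members were lower with the GSI (all genes 8.5%), and 0 rose by limma at either the adjusted or the unadjusted *P* of 0.05 (all genes 8%). This comparison shares its TAS1440 libraries with that against DMSO, and without the 8 members at a log2 value of 1 in those libraries alone 4 of 6 were lower. Of these 4, *Anxa2* and *Anxa4* also passed the filter only with the TAS1440 libraries. Against DMSO, *Anxa11* was the 1 member called with TAS1440 plus GSI (-1.07 ± 0.16, adjusted *P* = 0.00976, all genes 1.21%), at 0.36, 0.47 and 0.58 against 1.56, 1.69 and 1.38, and this call was lost without DMSO library 1 or 2 or GSI library 8. *S100a1* did not pass in any KP1 comparison and overlapped between TAS1440 and TAS1440 plus GSI. Of the 10 members below the filter, *S100a8* reached 0.50 and *S100a7a* 1.21 in TAS1440 library 5, and *S100b* 0.89 in library 6. The fibroblast sum in KP1 was 0.04 to 0.08 in DMSO, 14.8 to 287 with TAS1440 and 0.11 to 0.59 with the GSI, and the neuroendocrine sum 592 to 637, 0.52 to 62.8 and 469 to 602. Whether these sums bear on the member values was not tested.

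**Figure D4:**
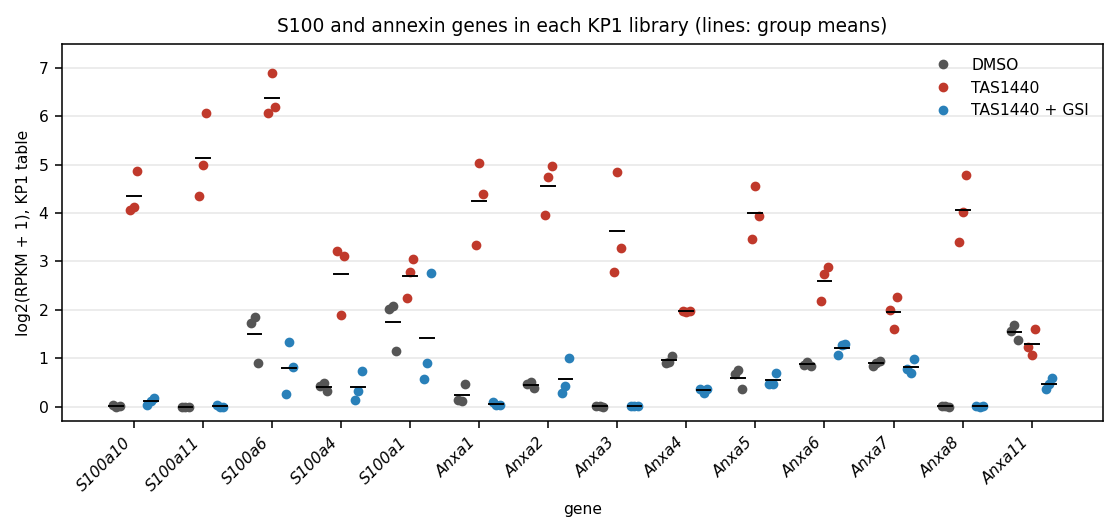
Log2(RPKM + 1) of the 14 KP1 members tested (horizontal axis) in the 3 libraries each of DMSO, TAS1440 and TAS1440 plus GSI. *S100a10* sits at 0.03 or below in DMSO, between 4.07 and 4.87 with TAS1440 and at 0.18 or below with the GSI.

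REST represses neuronal genes and is itself raised by NOTCH1 signaling, and was overexpressed in H524 and knocked out in H82 to ask for its share. In H524 with the REST vector, *REST* rose by 4.01 ± 0.69. By limma 0 of 19 members rose or fell, where few of all genes did (1.28% and 0.586%), with 1 (*ANXA11*) higher and 0 lower at an unadjusted *P* under 0.05. *ANXA1* was at 0.00, 0.00 and 0.16 without and at 0.17, 0.00 and 0.14 with doxycycline, and *ANXA2* at 3.89, 3.83 and 3.8 without and 3.60, 3.88 and 3.66 with it. *S100A4* was at 2.29, 2.68 and 2.36 without and at 2.19, 1.72 and 1.71 with doxycycline (-0.57 ± 0.36, adjusted *P* = 0.449). *S100A10* was at 0.41, 0.99 and 0.00 and then at 1.88, 0.32 and 1.37. *S100A11* was listed at 0 without doxycycline and was at 0.26, 0.18 and 0.12 with it, and *S100A6* reached no more than 0.12 in the induced libraries and was listed at 0 in the uninduced ones. The fibroblast sum was 1.68 to 3.53 without and 4.94 to 23.3 with doxycycline.

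The response to N1ICD differed from that to REST in 8 of 19 members (all genes 15.6%), among them *ANXA1*, *S100A3* and *S100A11*, which passed the filter only with the doxycycline libraries. It was larger by 4.74 ± 0.42 for *ANXA1* (adjusted *P* = 2.73e-06), by 2.48 ± 0.54 for *S100A3*, by 2.07 ± 0.48 for *ANXA6* and by 2.03 ± 0.32 for *ANXA5*, and smaller by limma for *S100A1* (-2.91 ± 0.80), *S100A13* (-2.15 ± 0.38) and *S100A5* (-1.73 ± 0.47). *S100A11* also differed (adjusted *P* = 0.000784), with its REST controls at 0. Between the induced groups, 11 of 19 members differed (all genes 23.8%), 10 of them higher with N1ICD, led by *S100A6* (5.58 ± 0.51), *ANXA1* (5.36 ± 0.30) and *S100A11* (4.30 ± 0.31). Part of that gap was there before induction. *S100A6* was at 4.98 or more in the N1ICD libraries without doxycycline and listed at 0 in the REST libraries without doxycycline, and *S100A10* was at 3.22 to 4.89 in the former and at most 0.99 in the latter. The vector lines of H524 therefore differed in these genes without doxycycline as well.

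In the H82 REST KO line many members still rose with doxycycline, and others responded differently from intact cells. With REST KO, doxycycline raised 9 of 19 members and lowered 3 (all genes 16.2% and 13.7%), with a median of 0.90 against -0.01. Of the 15 members at a log2 value of 1 outside the treated libraries too, it raised 7 and lowered 3. All 9 S100 genes tested were called, 6 up and 3 down, and 3 of the 10 annexins. The S100 genes that rose include *S100A2* and *S100A3*, which reached a log2 value of 1 in doxycycline libraries alone and so had to differ. *ANXA1* was at 0.00, 0.00 and 0.06 without and at 6.69, 6.52 and 6.02 with doxycycline (6.39 ± 0.44, adjusted *P* = 1.03e-09). *S100A10* was at 1.57, 0.91 and 2.93 without and at 6.60, 7.02 and 7.71 with it (5.30 ± 0.58, adjusted *P* = 4.62e-07). *S100A11* was at 1.53, 1.91 and 1.54 without and at 6.92, 6.99 and 6.71 with it (5.21 ± 0.45, adjusted *P* = 1.93e-08). These groups were all far apart. *S100A16* went the other way, from 5.45, 5.60 and 5.49 to 2.26, 2.65 and 0.32 (-3.77 ± 0.46, adjusted *P* = 1.84e-06), and *S100A1* fell by 4.45 (SE 0.52, adjusted *P* = 1.2e-06) and *S100A13* by 2.48 (SE 0.33, adjusted *P* = 5.86e-06). *ANXA2* was at 6.54, 6.60 and 6.81 without and at 7.09, 7.22 and 7.16 with doxycycline (0.51 ± 0.29, adjusted *P* = 0.156).

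The doxycycline response differed between REST KO and intact H82 in 8 of 19 members (all genes 12.9%), among them *ANXA8* and *ANXA8L1*, which reached a log2 value of 1 in treated libraries alone. It was lower by limma for *S100A16* (-4.57 ± 0.65, adjusted *P* = 7.44e-05), *ANXA3* (-3.19 ± 0.53, adjusted *P* = 0.00033), *S100A13* (-1.73 ± 0.47, adjusted *P* = 0.0162) and *ANXA4* (-1.68 ± 0.34, adjusted *P* = 0.00183), and for *ANXA8*, *ANXA8L1* and *ANXA7*. The call of *ANXA7* (-1.01 ± 0.33) was lost without any of 7 libraries (-1.07 to -0.75), without a filter and with only the compared groups, and that of *ANXA8L1* (-1.33 ± 0.36) without library 8 (-0.97) and at a pseudocount of 0.1. It was higher for *ANXA6* (1.28 ± 0.27, adjusted *P* = 0.00324), which was at 8.92, 8.87 and 8.56 without and 9.60, 9.74 and 9.38 with doxycycline in REST KO. For *ANXA1* (0.83 ± 0.62), *S100A10* (1.01 ± 0.82) and *S100A11* (1.58 ± 0.63) the difference in response did not pass (adjusted *P* = 0.401, 0.441 and 0.0989). Among libraries with doxycycline, 0 of 19 members were higher and 11 lower in REST KO than in intact cells (all genes 9.44% and 8.21%). Leaving out the members at a log2 value of 1 in treated libraries alone, 9 of 15 were lower. At an unadjusted *P* under 0.05, 2 were higher by limma (*ANXA6* and *S100A3*). *S100A16* had the lowest value relative to intact cells (-4.25 ± 0.46, adjusted *P* = 1.24e-06), then *ANXA3*, at 2.99, 3.10 and 2.24 against 6.07, 7.05 and 5.63 (-3.47 ± 0.37, adjusted *P* = 1.16e-06). *ANXA2* (-1.53 ± 0.29) and *S100A10* (-2.14 ± 0.58) were also lower (adjusted *P* = 0.000577 and 0.00722), and *ANXA5* (-1.01 ± 0.22) was at -0.75 without library 8. *S100A1* (-1.62 ± 0.52) was not called without library 7, 8 or 33.

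Of the libraries with doxycycline, library 33 was the lowest of its REST KO group in 14 of 19 members, and library 8 the highest of the intact group in 15 of 19. *NOTCH1* itself was higher in REST KO than in intact cells with doxycycline (4.69 ± 0.44), and the fibroblast sum was 2175 to 2654 in REST KO against 1104 to 2142. The groups thus differed in the level of the induced transcript as well as in REST, and their parts cannot be told apart.

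The libraries labelled STING KO were compared to ask which values depend on STING, the adaptor of cytosolic DNA sensing. Members were often lower in them than in intact cells under the same activation. In H82 with doxycycline, 0 of 19 members were higher and 15 lower by limma (all genes 7.72% and 8.75%), with 0 higher also at an unadjusted *P* under 0.05, and the median was -1.32 against -0.10. The count was 8 without library 8, the highest library of the intact group in most members. Leaving out the members at a log2 value of 1 in treated libraries alone, 11 of 15 were lower. *S100A10* did not differ beyond its spread, at 9.25, 9.22 and 9.08 in labelled STING KO against 9.29, 9.70 and 8.76 (-0.07 ± 0.58, adjusted *P* = 0.945). *ANXA1* was lower at 6.30, 5.19 and 5.97 against 7.59, 8.18 and 6.81 (-1.71 ± 0.44, adjusted *P* = 0.00542). *S100A2* was at 1.15, 0.95 and 2.05 against 4.03, 3.99 and 3.23 (-2.37 ± 0.38, adjusted *P* = 0.000131). *S100A1* was at 0.95, 1.96 and 1.18 against 4.21, 4.81 and 3.33 (-2.75 ± 0.52, adjusted *P* = 0.000564). The groups did not overlap in these 3 genes.

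*ANXA3* (-2.19 ± 0.37), *ANXA4* (-1.74 ± 0.24), *ANXA8* (-1.71 ± 0.22) and *ANXA7* (-1.36 ± 0.24) were lower as well. Several of the 15 calls rested on library 8: without it *ANXA2* was at -0.90 (from -1.24 ± 0.29), *ANXA5* at -0.84 (from -1.09 ± 0.22), *S100A13* at -0.85 (from -1.42 ± 0.33), *S100A16* at -0.96 (from -1.32 ± 0.46) and *S100A3* at -0.82 (from -1.11 ± 0.25). *S100A11* (-1.18 ± 0.45, adjusted *P* = 0.0431) lost its call without any 1 of the 6 libraries compared (-1.31 to -1.03). Within the labelled STING KO line, doxycycline still raised 8 of 19 members and lowered 2 (all genes 12.2% and 8.07%). Of the 15 members at a log2 value of 1 outside the treated libraries too, it raised 7 and lowered 2. *S100A10* went from 4.26, 1.60 and 2.17 to 9.25, 9.22 and 9.08 (6.51 ± 0.58, adjusted *P* = 6.75e-08), *ANXA1* rose by 4.47 ± 0.44 and *S100A11* by 4.13 ± 0.45. The response differed from that of intact cells in 6 of 19 members, all lower (all genes 7.12% in either direction): *S100A2* (-2.43 ± 0.54), *S100A13* (-2.36 ± 0.47), *ANXA8* (-1.65 ± 0.31), *ANXA4* (-1.47 ± 0.34), *S100A3* (-1.47 ± 0.35) and *ANXA8L1* (-1.46 ± 0.36). Among the 15 members at a log2 value of 1 outside the treated libraries too, 2 were called (*ANXA4* and *S100A13*). *NOTCH1* was higher in the labelled STING KO libraries with doxycycline (2.10 ± 0.44). The *TMEM173* transcript was not lower there and the protein was not measured in these libraries, so the member values describe the labelled line.

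In COR-L88 with TAS1440, *S100A11* and *ANXA1* were far lower in the labelled STING KO libraries. With TAS1440, 12 of 20 members were lower and 0 higher in labelled STING KO than in intact cells (all genes 5.06% and 1.48%), with 0 higher by limma at an unadjusted *P* under 0.05, and the median was -1.14 against -0.07. After quantile normalization 10 members were lower and 35.5% instead of 22.6% of all called genes were higher. Leaving out the members at a log2 value of 1 in treated libraries alone, 9 of 16 were lower. *S100A11* was at 0.00, 0.61 and 0.00 in labelled STING KO against 4.65, 4.43 and 3.62 (-4.03 ± 0.25, adjusted *P* = 4.06e-07). *ANXA1* was at 0.72, 2.53 and 0.58 against 4.98, 4.15 and 4.32 (-3.21 ± 0.38, adjusted *P* = 0.000105). *S100A10* was at 7.37, 9.07 and 7.79 against 11.43, 10.28 and 10.46 (-2.65 ± 0.44, adjusted *P* = 0.000982). None of these overlapped. *S100A6* was at 6.68, 7.57 and 6.35 against 9.44, 8.60 and 8.74 (-2.06 ± 0.43, adjusted *P* = 0.00382), and *ANXA2* at 7.32, 8.21 and 7.22 against 9.98, 8.91 and 9.30 (-1.81 ± 0.34, adjusted *P* = 0.00196). *ANXA8* (-3.08 ± 0.36), *ANXA3* (-2.09 ± 0.28) and *S100A2* (-1.70 ± 0.40) were also lower. *S100A16* (-1.25 ± 0.23) was at -0.89 without library 13, *S100A13* (-1.03 ± 0.30) at -0.63 without it, and *ANXA6* (-1.01 ± 0.29) at -0.85 without library 15.

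Some members rose with TAS1440 in the labelled STING KO line too. There 8 of 20 were higher and 0 lower (all genes 10.2% and 5.79%), with 2 lower by limma at an unadjusted *P* under 0.05. Of the 16 members at a log2 value of 1 outside the treated libraries too, 7 were higher. *S100A10* went from 0.00, 0.00 and 0.52 in DMSO to 7.37, 9.07 and 7.79 (7.91 ± 0.44, adjusted *P* = 1.49e-08), and *ANXA3* from 0.40, 0.37 and 0.00 to 3.14, 4.01 and 3.88 (3.42 ± 0.28, adjusted *P* = 4.72e-07). All 3 values of *S100A10* were below those of intact cells in DMSO as well as with TAS1440, and the DMSO difference was not tested. *ANXA1* was listed at 0 in DMSO and its call (adjusted *P* = 0.0155) was lost without library 44. The TAS1440 response differed from that of intact cells for *S100A11* (adjusted *P* = 6.03e-05), *ANXA1* (0.00653), *ANXA8* (0.00599), *S100A6* (-2.34 ± 0.60, adjusted *P* = 0.0323) and *S100A16* (-1.2 ± 0.33, adjusted *P* = 0.0391), 5 of 20 members against 4.23% of all genes. Of these 5, *S100A11*, *ANXA1* and *ANXA8* were listed at 0 in all labelled STING KO libraries with DMSO, so their size depends on the pseudocount. The members at a log2 value of 1 outside the treated libraries too had 2 of 16 called, *S100A6* and *S100A16*. *S100A16* lost its call without any of 9 libraries and *S100A6* without any of 7. The difference in response did not pass for *S100A10* (1.15 ± 0.63, adjusted *P* = 0.271) or *ANXA2* (-1.57 ± 0.48, adjusted *P* = 0.0604). *NOTCH1* was higher in the labelled STING KO libraries with TAS1440 (1.76 ± 0.39).

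**Figure D5:**
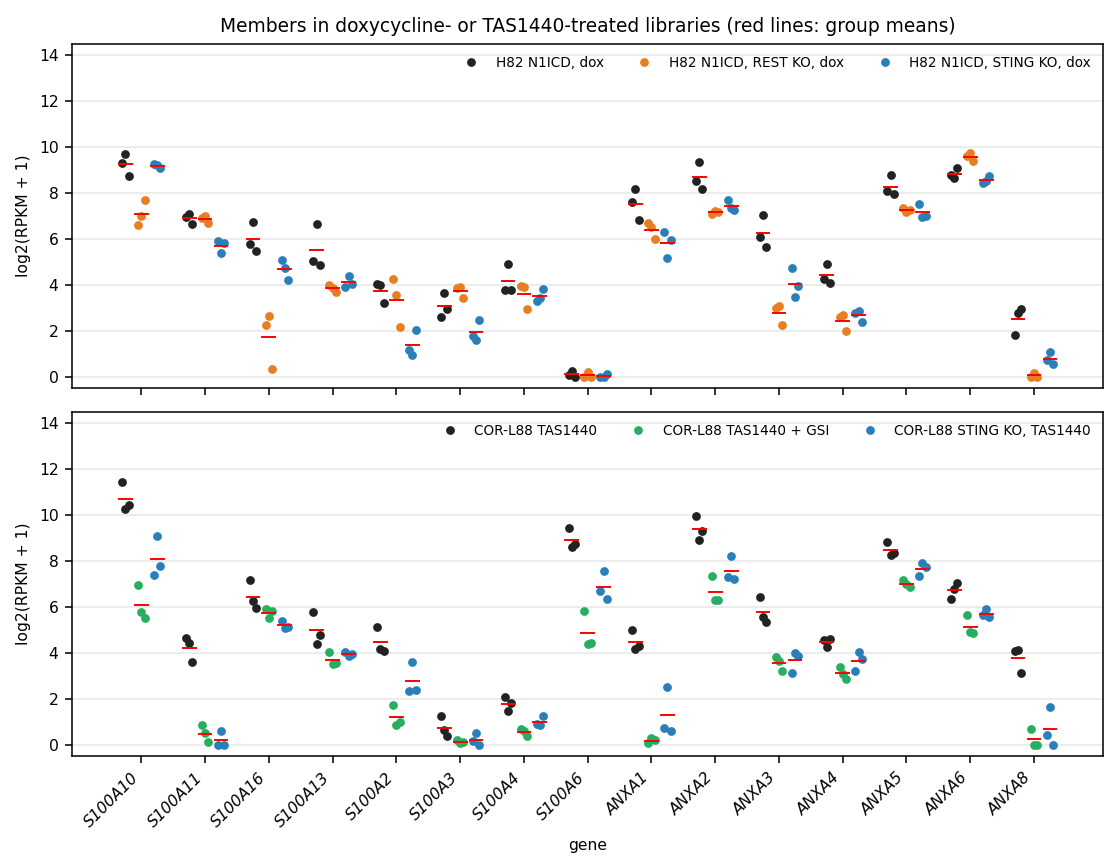
Log2(RPKM + 1, vertical axis) of 15 members (horizontal axis) in single libraries of the activated groups, with lines for the means of 3: H82 with doxycycline (intact, REST KO and labelled STING KO) and COR-L88 with TAS1440 (intact, with GSI and labelled STING KO). *S100A11* lies between 3.62 and 4.65 in intact COR-L88 with TAS1440 and at 0.85 or below in the other 2 groups, while in H82 it lies between 6.65 and 7.07 in intact cells and between 5.40 and 5.90 in labelled STING KO.

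The N1ICD responses of the vector lines were set against each other in a single model over all human groups. H69 differed from H82 in 15 of 23 members (5 larger, 10 smaller, all genes 45.7%), H524 from H82 in 12 of 22 (1 larger, 11 smaller, all genes 21.1%) and H69 from H524 in 9 of 22 (8 larger, 1 smaller, all genes 39.6%). In both contrasts with H82, *ANXA8* and *ANXA8L1* count among the smaller responses. Among these lines they reached a log2 value of 1 in H82 libraries with doxycycline alone, so they were tested only because those were high. No counts were made without them. *ANXA6* responded more in H69 than in H82 by 8.37 ± 0.73 (adjusted *P* = 2.16e-13), and *S100A4* by 3.15 ± 0.48 (adjusted *P* = 2.62e-07). *S100A10* responded less in H69 (-3.35 ± 0.72, adjusted *P* = 8.85e-05) and in H524 (-3.68 ± 0.72, adjusted *P* = 6.57e-05) than in H82. *ANXA3* did so too (-4.65 ± 0.43 and -4.30 ± 0.43, adjusted *P* = 7.85e-13 and 3.11e-11). *S100A1* and *S100A13* responded in opposite directions in H69 and H524, with differences of 4.03 ± 0.66 and 3.68 ± 0.43 (adjusted *P* = 1.47e-06 and 6.57e-10). The responses of *S100A11* and *ANXA5* differed between H69 and H82 (-1.63 ± 0.50 and -1.28 ± 0.27, adjusted *P* = 0.00442 and 8.18e-05), although both rose in each line. For *ANXA1* the difference between H69 and H82 (-1.26 ± 0.55, adjusted *P* = 0.0427) was not called without any of 7 libraries (-1.28 to -0.77). Between H524 and H82, the 1 larger response, *ANXA6* (1.88 ± 0.73), was not called without any of 7 libraries (1.46 to 1.88), without a filter, after quantile normalization or at a pseudocount of 0.1. The smaller response of *S100A16* (-2.24 ± 0.85) was not called without any of 7 libraries (-2.11 to -1.26, the last without library 22) or at a pseudocount of 0.1. In these comparisons each line's response is shared by 2 of the 3 contrasts.

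The vector lines also differed from their parental lines without doxycycline. In H82, *S100A1* was higher in N1ICD cells without doxycycline, at 6.07, 7.21 and 6.49 against 3.20, 2.17 and 1.19 (4.41 ± 0.52, adjusted *P* = 1.11e-05), and *S100A13* (1.27 ± 0.33) and *ANXA1* (1.51 ± 0.44) were called too, 3 of 19 members against 6.41% of all genes. The call of *ANXA1* was lost without library 2, 3, 5 or 6 (1.13 to 1.60) and that of *S100A13* without library 3 or 5. In H524, *S100A10* was at 4.89, 3.22 and 3.27 against 0.95, 0.00 and 0.81 (3.21 ± 0.47, adjusted *P* = 0.00043), *S100A6* was called higher by 2.40 ± 0.51 (1.58 without library 22, and adjusted *P* = 0.109 with only the compared groups), and *S100A11* was listed at 0 in parental cells, with 5 of 19 members called (all genes 12.1%). In H69, 4 of 19 members fell (all genes 5.27% in either direction): *S100A9* and *S100A8*, listed at 0 in all N1ICD libraries, *S100A14* (-1.64 ± 0.10, adjusted *P* = 1.15e-05) and *S100A13* (-1.27 ± 0.13, adjusted *P* = 0.000203). In the same H69 libraries *NEUROD1* was at 8.69 to 10.61 against 3.32 to 5.03 in parental cells, so the vector line without doxycycline was not like the parental line in this gene.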

How the data were processed

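RNA-Seq of 5 SCLC lines was made with the Illumina Stranded mRNA Prep, and per the labels cutadapt, STAR, RSEM and edgeR were used on hg19 and mm10, without versions or annotation. The authors deposited log2(RPKM + 1) values scaled by TMM, 1 table for 60 human and 1 for 9 KP1 libraries. The study fitted limma voom to counts; on these log2 values limma 3.58.1 with a variance trend (R 4.3.3) was used, with 1 mean per group and all groups of a line in the model. Genes were kept if 3 or more libraries of the line had a log2 value of 1 or higher. *P* values were adjusted by Benjamini-Hochberg, with calls at 0.05 and a log2 difference of 1. On simulated data with 200 changed genes, 88.5% (KP1) to 95.5% (COR-L88) were recovered. Members and lists were chosen with earlier results of these data known. Named in each line were *S100A10*, *ANXA2*, *S100A4*, *S100A6*, *S100A11*, *S100A16*, *ANXA1*, *S100A8* and *S100A9*, and up to 10 further called members whose groups did not overlap and whose higher mean was at least 2, by size of change. Alternatives were the filter, pseudocount, normalization, model groups, variance trend and leaving out each library.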

Additional observations from a re-analysis of the deposited data

Results flagged for a closer look

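Differences between groups in the response to the same treatment were picked out wherever the interaction term passed in limma (adjusted *P* under 0.05 by Benjamini-Hochberg over all genes tested and an absolute log2 difference of at least 1). Where a group was listed at 0 in all libraries of an arm, as for *S100A11*, *ANXA1* and *ANXA8* in COR-L88 labelled STING KO with DMSO, the size depends on the pseudocount of 1 inside the values. Some members listed below reached a log2 value of 1 in treated libraries alone. Without them, the response of the labelled STING KO line differed in 2 of 15 members in H82 and in 2 of 16 in COR-L88. For the comparisons between lines no such count was made.

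The doxycycline response of H82 N1ICD cells with REST KO differed from that of intact cells in 8 members (12.9% of all genes were called), with differences on the log2 scale of -3.19 for *ANXA3*, -1.68 for *ANXA4*, 1.28 for *ANXA6*, -1.01 for *ANXA7*, -2.30 for *ANXA8*, -1.33 for *ANXA8L1*, -1.73 for *S100A13* and -4.57 for *S100A16*. In the H82 line labelled STING KO, 6 members (7.12% of all genes were called) differed from intact cells in their response, by -1.47 for *ANXA4*, -1.65 for *ANXA8*, -1.46 for *ANXA8L1*, -2.36 for *S100A13*, -2.43 for *S100A2* and -1.47 for *S100A3*. The responses of H524 cells to N1ICD and to REST differed in 8 members (15.6% of all genes were called), by 4.74 for *ANXA1*, 2.03 for *ANXA5*, 2.07 for *ANXA6*, -2.91 for *S100A1*, 2.59 for *S100A11*, -2.15 for *S100A13*, 2.48 for *S100A3* and -1.73 for *S100A5*. The TAS1440 response of the COR-L88 line labelled STING KO differed from that of intact cells in 5 members (4.23% of all genes were called), by -3.05 for *ANXA1*, -2.89 for *ANXA8*, -4.03 for *S100A11*, -1.20 for *S100A16* and -2.34 for *S100A6*.

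Set against H82, the N1ICD response of H69 differed in 15 members (45.7% of all genes were called), by -1.26 for *ANXA1*, -4.65 for *ANXA3*, -1.17 for *ANXA4*, -1.28 for *ANXA5*, 8.37 for *ANXA6*, -2.13 for *ANXA8*, -1.26 for *ANXA8L1*, 3.73 for *S100A1*, -3.35 for *S100A10*, -1.63 for *S100A11*, 2.26 for *S100A13*, -3.19 for *S100A14*, -2.19 for *S100A2*, 1.84 for *S100A3* and 3.15 for *S100A4*. Set against H82, that of H524 differed in 12 members (21.1% of all genes were called), by -1.46 for *ANXA2*, -4.30 for *ANXA3*, -1.84 for *ANXA4*, 1.88 for *ANXA6*, -2.35 for *ANXA8*, -1.63 for *ANXA8L1*, -3.68 for *S100A10*, -1.42 for *S100A13*, -2.24 for *S100A16*, -3.23 for *S100A2*, -2.13 for *S100A4* and -1.66 for *S100A5*. Set against H524, that of H69 differed in 9 members (39.6% of all genes were called), by 2.22 for *ANXA2*, 6.49 for *ANXA6*, 4.03 for *S100A1*, 3.68 for *S100A13*, -2.29 for *S100A14*, 3.45 for *S100A16*, 2.11 for *S100A3*, 5.29 for *S100A4* and 1.69 for *S100A5*. The 3 line comparisons share responses with each other, so they are not independent. For H69 against H524 the share of members called (9 of 22) was close to that of all genes. Several of these calls were lost when single libraries were left out. They included *ANXA2*, *ANXA6*, *S100A13* and *S100A16* between H524 and H82, and *ANXA1* and *ANXA8L1* between H69 and H82. In H82 they included *ANXA7* and *ANXA8L1* with REST KO and *ANXA8L1* with labelled STING KO. The others were *S100A1* between N1ICD and REST in H524, and *S100A6* and *S100A16* with labelled STING KO in COR-L88.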

How the results depend on the processing

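The number of members called was recomputed under 363 alternatives over 27 comparisons, and 347 stayed within 1.5 times. With only the compared groups in the model it went from 3 to 1 in H82 and from 5 to 2 in H524 for N1ICD without doxycycline against parental cells, and from 0 to 1 for REST in H524. Without a filter on low values the COR-L88 STING KO by TAS1440 interaction had 3 calls instead of 5, and with a pseudocount of 0.1 KP1 TAS1440 plus GSI against DMSO had 2 instead of 1. Leaving out 1 library gave 8 to 14 calls instead of 15 for H82 with doxycycline labelled STING KO against intact cells (8 without library 8), 3 to 6 for the COR-L88 interaction (3 without any of libraries 11, 12, 13, 40, 42, 43 or 45) and 0 to 1 for KP1 TAS1440 plus GSI against DMSO (0 without DMSO 1, DMSO 2 or GSI 8). The causes were not tested.

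Of 3373 alternatives for 253 named differences, 3208 kept their direction and their side of the threshold. The sign turned for 3 differences that were not called. *ANXA2* with N1ICD in H524 was at 0.03, at -0.08 after median centring and at -0.18 to 0.36 with 1 library left out. *S100A6* in the same comparison was at -0.45, and at -0.99 to 0.37 with 1 library left out. *S100A16* in COR-L88 with TAS1440 was at 0.25, and at -0.10 to 0.51 with 1 library left out. Dropping the variance trend changed no call among the named differences.

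No paired analysis was possible because the groups compared share no library numbers, and the numbers that parental H82 and KP1 DMSO have in common come from serial numbering of each table. With 3 libraries a group and no read counts, depth could not be weighed against spread, and members near 0 are limited by the pseudocount.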
